A study of Macaca fascicularis with 6 samples.

Results

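The glucocorticoid-responsive genes described here were 8 genes chosen by name: FKBP5, TSC22D3, KLF9, ZBTB16, FAM107A, SGK1 and ERRFI1, which are known targets of glucocorticoid hormones, and NR3C1, which encodes the glucocorticoid receptor. All 8 were among the 13950 genes of the matrix holding the stem cells and among the 14020 genes of the matrix holding the tissues. The data came from single-cell RNA sequencing by TAS-Seq, a bead-based method, of cynomolgus monkey cells. The study asked how cartilage made from induced pluripotent stem cells differed before and after transplantation from native cartilage and repair tissue.

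The cyiPSC were cynomolgus induced pluripotent stem cells that express EGFP from a constitutive promoter and were maintained on mouse feeder cells. Pre-transplant cyiPS-Cart was cartilage made in culture from those cells in a chondrogenic medium with insulin, transferrin and selenium, low serum, ascorbic acid, BMP2, TGF-β1 and GDF5. The methods list no glucocorticoid in this medium, and steroid levels in medium or blood were not part of the data. Post-transplant cyiPS-Cart was the same allogeneic cartilage recovered 4 months after it was placed into chondral defects of the knee. Its labels give wild-type monkeys 3 to 4 years old, which describes the recipients. The other animal samples, from monkeys of the same age, were cyAC, which was intact articular cartilage, and cyFT, which was the fibrous tissue that filled defects left empty. Cells of several sites or animals could be combined within a condition and were not told apart by the cell names used here, so each condition was 1 sample, no test between conditions was possible, and every interval below covers counting error only.

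The tissue matrix held 320 cells of each of 4 conditions, with 21293959 reads in pre-transplant cyiPS-Cart, 29855420 in post-transplant cyiPS-Cart, 11825548 in cyAC and 11087496 in cyFT, and median depths from 27499.5 to 80335.5 reads per cell. The stem cell matrix held 2500 cyiPSC with 415457877 reads and 3527 pre-transplant cells, among them 300 of the 320 above. Pre-transplant cells shared a library with cyiPSC, cyAC shared one with cyFT, and the post-transplant cells had their own, so that library and condition cannot be told apart in comparisons across libraries. Pre-transplant tissue was also digested in its culture medium, whereas cyAC and post-transplant tissue were digested in RPMI medium, and this too cannot be told apart from the condition. No cell barcode was shared between libraries (0 shared). EGFP reads were in 100% of cyiPSC, pre-transplant and post-transplant cells and in 0 of 320 cells of cyAC and of cyFT. For the latter the upper limit on cells with a read is 0.938% by a rule of 3 counts and 1.15% by the exact binomial interval. EGFP does not tell apart the conditions that share a library. Within these libraries COL2A1 was read in 0.40% of cyiPSC and 92.5% of the 3527 pre-transplant cells, and COL1A1 in 5.94% of cyAC and 63.4% of cyFT cells. The 6 chondrocyte markers COL2A1, ACAN, SOX9, COL9A1, MATN3 and HAPLN1 summed to between 30415 and 69138 CPM, which are reads scaled to 1000000 per condition, in the 4 tissue conditions.

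As background, the glucocorticoid receptor waits in the cytoplasm in a complex with the chaperone HSP90, moves to the nucleus when cortisol binds, and then acts on genes that carry its response elements. FKBP5, a co-chaperone, lowers the affinity of the receptor for hormone and so closes a feedback loop. In cartilage, glucocorticoids are known both as anti-inflammatory drugs and as additives of chondrogenic media, and the target genes also answer to other signals, such as cAMP, growth factors, osmotic stress and mechanical load.

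The 7 targets had different orders of conditions. FAM107A was 69.2-fold apart between post-transplant and pre-transplant cyiPS-Cart, TSC22D3 was higher in post-transplant cyiPS-Cart and cyFT but not in cyAC, ERRFI1 was high in cyAC and cyFT and low in the transplant, and FKBP5 was in few cells of any tissue. ZBTB16 had no read in the 320 pre-transplant cells and reads in each animal sample. Levels below are reads of a gene summed over the cells of a condition, in CPM of all listed genes. They are compared between conditions and not between genes, since they are not per length.

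NR3C1, the receptor itself, was at 10.1 CPM in cyiPSC, 135 CPM in pre-transplant cyiPS-Cart, 107 CPM in post-transplant cyiPS-Cart, 225 CPM in cyAC and 212 CPM in cyFT. The stem cells were thus low and the 4 cartilage and repair conditions high, with the neighbours cyAC and cyFT overlapping in their counting intervals. In the stem cell matrix the level in pre-transplant cyiPS-Cart was 13.1-fold that of cyiPSC (95% interval 12.7 to 13.6). Post-transplant cyiPS-Cart was 2.09-fold below cyAC, a difference that came to -1.06 on the log2 scale and to between -0.99 and -0.88 with TMM or DESeq2 factors, the mean of per-cell CPM, doublets left out or equal depth. The share of cells with a read, after each cell was thinned to 12191 reads, was 55.5% in pre-transplant cyiPS-Cart, 39.4% in post-transplant cyiPS-Cart, 52.3% in cyAC and 53.8% in cyFT. The receptor was therefore read in many cells of each tissue.

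FKBP5 was at 22.4 CPM in cyiPSC, 4.79 CPM in pre-transplant cyiPS-Cart, 4.45 CPM in post-transplant cyiPS-Cart, 14.4 CPM in cyAC and 12.9 CPM in cyFT. The stem cells stood highest, cyAC and cyFT next with overlapping intervals, and the cyiPS-Cart conditions lowest, also with overlapping intervals. Pre-transplant cyiPS-Cart was 6.30-fold below cyiPSC in the stem cell matrix. The gene was read in 1249 of 2500 cyiPSC but in only 16 of 320 pre-transplant cells, 16 of 320 post-transplant cells, 27 of 320 cyAC cells and 23 of 320 cyFT cells. At an equal depth of 30967 reads, the share was 31.4% of cyiPSC and 4.60% of the larger set of pre-transplant cells. The ratio of post-transplant to pre-transplant cyiPS-Cart was 0.930 (0.713 to 1.22), an interval that includes no difference. The levels of cyAC and cyFT were 3.00-fold (2.33 to 3.87) and 2.69-fold (2.07 to 3.51) that of pre-transplant cyiPS-Cart. These ratios rest on few cells: with the 5% of cells highest in the gene left out, FKBP5 did not pass the filter on low genes in any comparison of tissues. After thinning, the shares were 2.82%, 2.81%, 5.84% and 4.17% in the same order, with overlapping intervals.

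**Figure D1:**
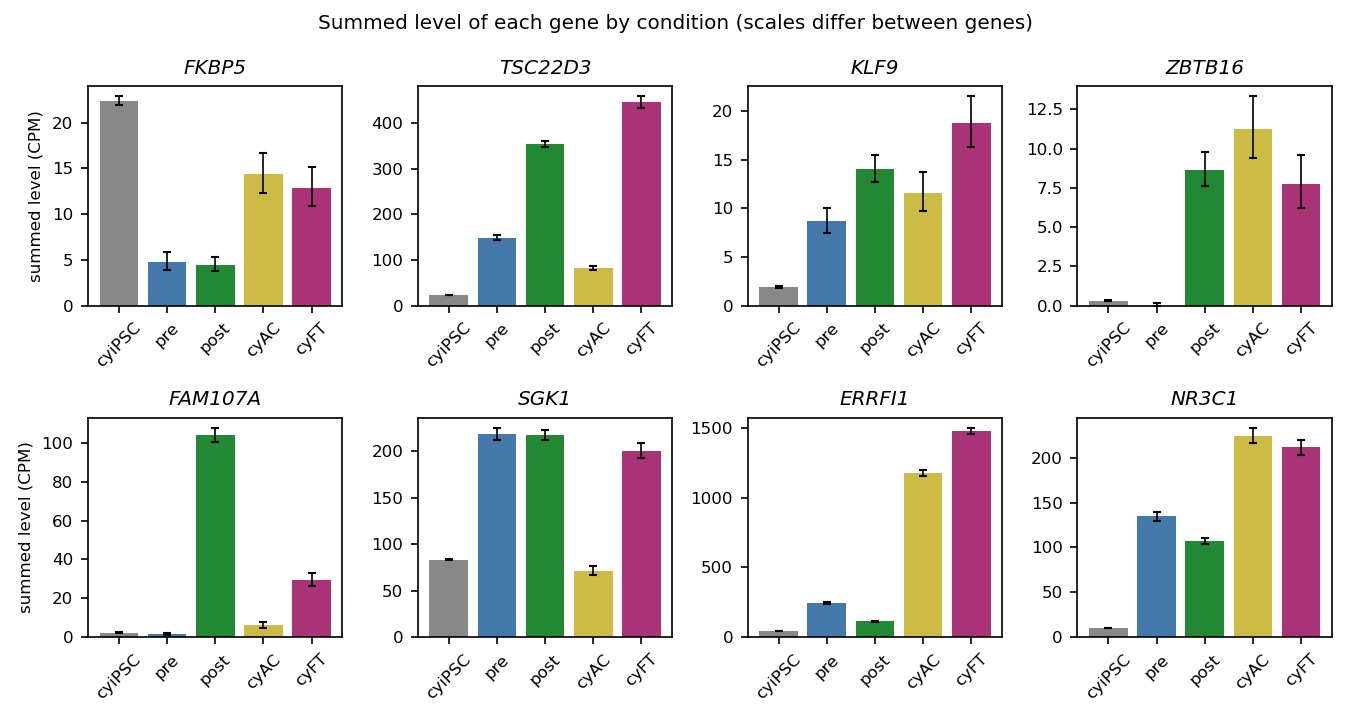
Summed level of each gene (CPM, linear axis from 0, a separate scale for each gene) in cyiPSC, cyiPS-Cart before (pre) and after (post) transplantation, cyAC and cyFT; error bars are exact Poisson 95% intervals, which cover counting error only, and each bar is 1 sample. The tallest bar is cyiPSC for FKBP5, post-transplant cyiPS-Cart for FAM107A, cyFT for TSC22D3, KLF9 and ERRFI1, cyAC for ZBTB16 and NR3C1, and pre-transplant cyiPS-Cart, at 218 CPM against 217 CPM after transplantation, for SGK1.

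TSC22D3 encodes GILZ, a leucine zipper protein that mediates part of the anti-inflammatory action of glucocorticoids. Its level was 22.7 CPM in cyiPSC, 149 CPM in pre-transplant cyiPS-Cart, 355 CPM in post-transplant cyiPS-Cart, 82.4 CPM in cyAC and 446 CPM in cyFT. No neighbours in this order overlapped in their intervals, and native cartilage was the lowest of the tissues. The post-transplant level was 2.38-fold (2.29 to 2.48) the pre-transplant level and 4.31-fold (4.03 to 4.60) that of cyAC, and the level of cyFT was 5.41-fold (5.05 to 5.80) that of cyAC. At equal depth, 65.0% of post-transplant cells and 68.4% of cyFT cells had a read, against 47.6% of pre-transplant cells and 29.6% of cyAC cells.

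KLF9, a zinc finger transcription factor, was at 1.91 CPM in cyiPSC, 8.69 CPM in pre-transplant cyiPS-Cart, 14.0 CPM in post-transplant cyiPS-Cart, 11.6 CPM in cyAC and 18.8 CPM in cyFT. The level of cyFT was 2.16-fold (1.76 to 2.65) that of pre-transplant cyiPS-Cart, and the other animal samples were under 2-fold, at 1.62-fold for post-transplant cyiPS-Cart and 1.33-fold for cyAC. That difference of 1.03 on the log2 scale was 0.95 with TMM and 0.93 with DESeq2 factors. Post-transplant cyiPS-Cart and cyAC, and cyAC and pre-transplant cyiPS-Cart, overlapped in their intervals.

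ZBTB16 encodes PLZF, a transcription factor and repressor. It had 0 reads in the 320 pre-transplant cells, which limits the share of cells with a read to 0.938% by the rule of 3 counts and to 1.15% by the exact interval, and was at 8.64 CPM in post-transplant cyiPS-Cart, 11.2 CPM in cyAC and 7.76 CPM in cyFT. These reads were in 15, 20 and 17 of 320 cells. Against the limit of 3 reads in the pre-transplant sample, the level was at least 61.3-fold higher in post-transplant cyiPS-Cart, at least 79.8-fold higher in cyAC and at least 55.1-fold higher in cyFT. The exact lower 95% limits of these ratios, which also take in the counting error of the animal samples, were 49.5, 64.0 and 43.8. The 3527 pre-transplant cells of the larger matrix had 13 reads in 3 cells (0.054 CPM), and cyiPSC had reads in 27 of 2500 cells (0.318 CPM). ZBTB16 was therefore rare in culture and confined to a small share of cells in the animal samples, whose intervals overlapped between neighbours. Of its comparisons with pre-transplant cyiPS-Cart, that of cyAC reached the filter of 10 CPM in either sample and the others did not.

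FAM107A, also called DRR1, encodes an actin-binding protein that is induced by stress hormones in the brain. Its level was 2.32 CPM in cyiPSC, 1.5 CPM in pre-transplant cyiPS-Cart, 104 CPM in post-transplant cyiPS-Cart, 6.0 CPM in cyAC and 29.6 CPM in cyFT. Post-transplant cyiPS-Cart stood above all other conditions, at 69.2-fold (48.9 to 101) the pre-transplant level, 17.3-fold (13.7 to 22.2) the level of cyAC and 3.51-fold (3.14 to 3.95) the level of cyFT. The level of cyFT was 19.7-fold (13.7 to 29.3) that of pre-transplant cyiPS-Cart. The pre-transplant level rested on 32 reads in 7 cells. Against the 3527 pre-transplant cells of the stem cell matrix, where it was 2.25 CPM, the difference on the log2 scale was 5.01 for post-transplant cyiPS-Cart, beside 5.39 against the 320 cells, and 3.24 for cyFT, beside 3.61. Reads were in 150 of 320 post-transplant cells, 7 pre-transplant cells, 8 cyAC cells and 28 cyFT cells. At equal depth the shares were 32.8%, 0.94%, 1.62% and 6.94%. Among cells with a read, the median level was 139 CPM in post-transplant and 38.0 CPM in pre-transplant cyiPS-Cart, 93.0 CPM in cyAC and 160.2 CPM in cyFT. These medians are at unequal depth, and those outside post-transplant cyiPS-Cart are over the 7, 8 and 28 cells given above.

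SGK1, a kinase that regulates ion channels and transporters, was at 83.2 CPM in cyiPSC, 218 CPM in pre-transplant cyiPS-Cart, 217 CPM in post-transplant cyiPS-Cart, 71.1 CPM in cyAC and 201 CPM in cyFT. The ratio of post-transplant to pre-transplant cyiPS-Cart was 0.993 (0.956 to 1.03), and cyAC stood apart as the low tissue, with the post-transplant level 3.05-fold (2.84 to 3.28) and the cyFT level 2.82-fold (2.60 to 3.06) that of cyAC. The share of cells with a read at equal depth was 63.0% before and 47.2% after transplantation, 18.8% in cyAC and 38.5% in cyFT. At like summed levels, fewer post-transplant than pre-transplant cells thus had a read.

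ERRFI1 encodes MIG6, an inhibitor of the EGF receptor needed for normal joint cartilage in mice. Its level was 44.7 CPM in cyiPSC, 244 CPM in pre-transplant cyiPS-Cart, 114 CPM in post-transplant cyiPS-Cart, 1179 CPM in cyAC and 1480.5 CPM in cyFT. The native and repair tissues were high and the transplant was low: post-transplant cyiPS-Cart was 10.4-fold below cyAC and 13.0-fold below cyFT. The level of cyAC was 4.83-fold (4.68 to 4.98) and that of cyFT 6.06-fold (5.87 to 6.25) that of pre-transplant cyiPS-Cart. The post-transplant level lay below the pre-transplant one by -1.10 on the log2 scale, and by -0.87 with TMM factors, -0.89 with DESeq2 factors and -0.79 against the larger set of pre-transplant cells, which are short of 2-fold. The authors' correction of background reads had set low counts of abundant genes to 0, and the lowest count above 0 of ERRFI1 was 9 in the post-transplant library and 8 in the library of cyAC and cyFT, against 1 for each of the other 7 members. Its shares of cells with a read are therefore not comparable with those of the pre-transplant library.

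**Figure D2:**
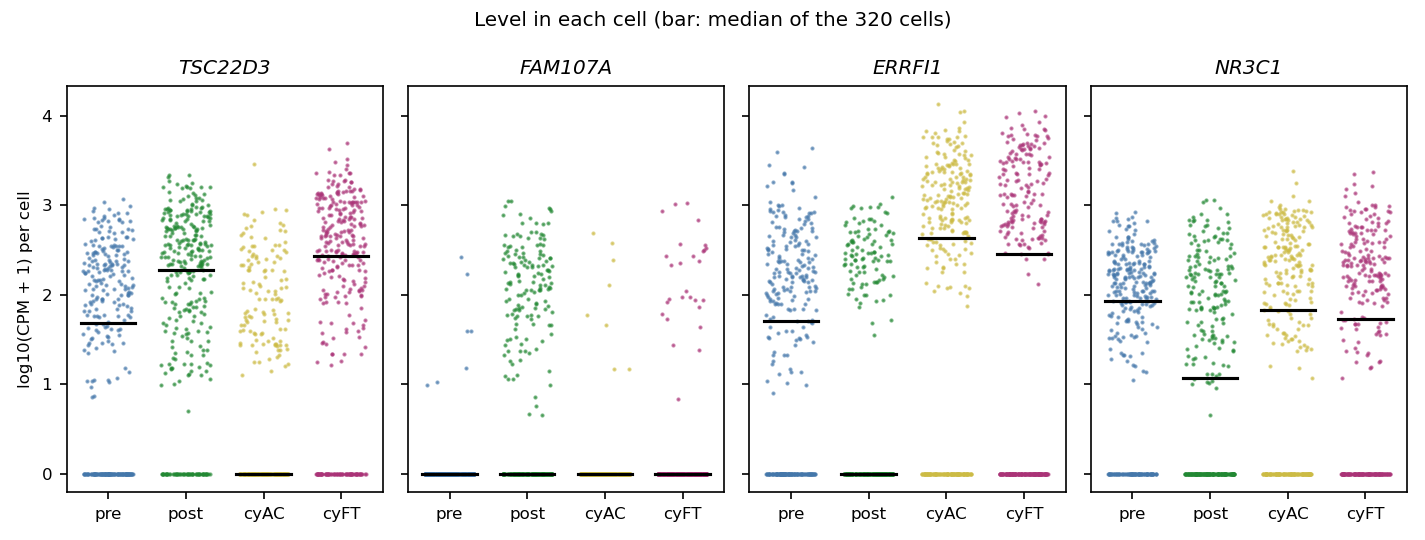
Level per cell, as log10(CPM + 1), of TSC22D3, FAM107A, ERRFI1 and NR3C1 in the 320 cells each of cyiPS-Cart before (pre) and after (post) transplantation, cyAC and cyFT; each point is a cell, spread sideways at random, and the bar is the median, with cells at unequal depth. FAM107A has reads in 150 post-transplant cells, against 7, 8 and 28 in the others, and the median of TSC22D3 is at 0 in cyAC alone.

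The counts of members past 2-fold were set beside those of all genes. A gene was called when it was at least 2-fold apart on log2(CPM + 1) and had at least 10 CPM in either sample. Between post-transplant and pre-transplant cyiPS-Cart, 2 of the 6 members that passed were higher (TSC22D3 and FAM107A) and 1 was lower (ERRFI1), beside 8.92% and 18.5% of the 7587 genes compared (12.7% and 12.8% with TMM factors). Between cyAC and pre-transplant cyiPS-Cart, 3 of 7 were higher (FKBP5, ZBTB16 and ERRFI1) and 1 was lower (SGK1), beside 11.9% and 15.5% of 7727 genes. Between cyFT and pre-transplant cyiPS-Cart, 5 of 7 were higher (FKBP5, TSC22D3, KLF9, FAM107A and ERRFI1) and 0 were lower, beside 16.4% and 9.15% of 8048 genes. The filter favours calls of higher genes among those low in culture: KLF9 and FAM107A in post-transplant cyiPS-Cart, FKBP5, KLF9 and ZBTB16 in cyAC, and FKBP5, KLF9 and FAM107A in cyFT passed it only through the animal sample. With at least 50 CPM required, 1 member (ERRFI1) was higher in cyAC and 2 (TSC22D3 and ERRFI1) in cyFT, so nothing is read from these counts about the members as a set. The median log2 ratios over all genes compared were -0.25, -0.19 and 0.03.

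**Figure D3:**
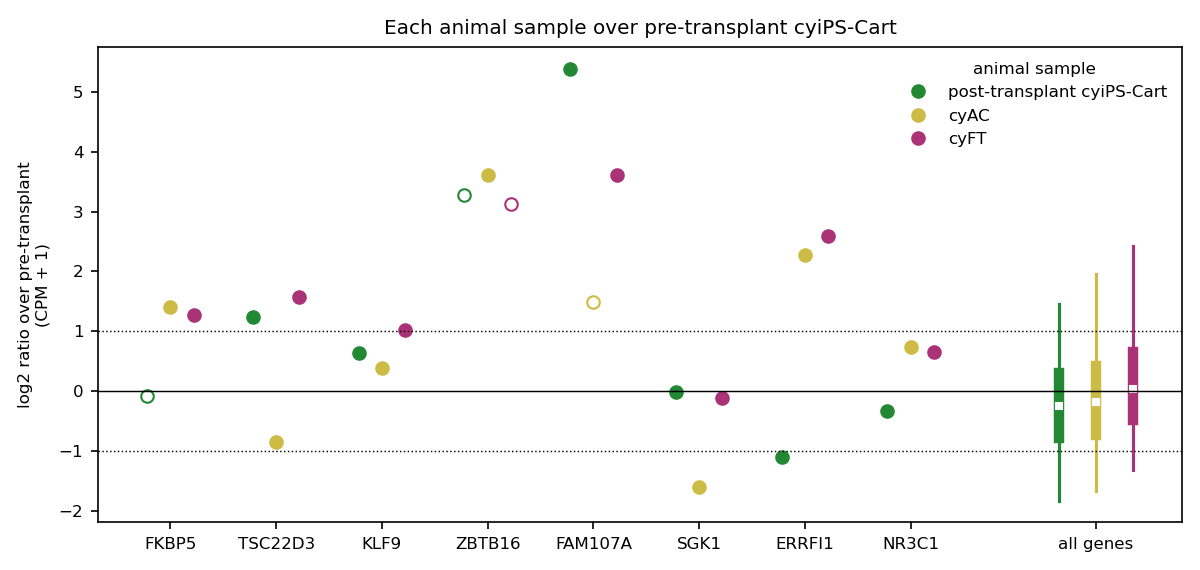
Log2 ratio of each animal sample over pre-transplant cyiPS-Cart, on CPM + 1, for the 8 genes, with open circles for genes below 10 CPM in both samples and dotted lines at 2-fold. The bars at the right give the distribution over all genes compared (white square, median; thick bar, middle 50%; thin line, 5th to 95th percentile); the ZBTB16 points depend on the pseudocount, since its pre-transplant level is 0, and FAM107A after transplantation lies above the thin line at 5.39.

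Among the animal samples, 3 of 8 members were higher in post-transplant cyiPS-Cart than in cyAC (TSC22D3, FAM107A and SGK1) and 3 were lower (FKBP5, ERRFI1 and NR3C1), beside 10.7% and 15.8% of 7621 genes. The same 3 genes, TSC22D3, FAM107A and SGK1, were higher in cyFT than in cyAC and 0 members were lower, beside 12.2% and 3.92% of 7900 genes (8.71% and 5.60% with TMM factors), with cyAC as the shared sample of these comparisons. Between post-transplant cyiPS-Cart and cyFT, 1 of 7 was higher (FAM107A) and 2 were lower (FKBP5 and ERRFI1), beside 6.65% and 21.8% of 7981 genes. With TMM factors the last shares were 11.8% and 14.9%.

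Between pre-transplant cyiPS-Cart and cyiPSC, 4 of the 5 members that passed were higher and 1 was lower, beside 16.5% and 37.4% of 8576 genes. NR3C1, TSC22D3 at 6.54-fold (6.39 to 6.69), ERRFI1 at 4.42-fold (4.34 to 4.49) and SGK1 at 2.82-fold (2.78 to 2.85) were higher, and FKBP5 was lower. KLF9, at 7.59 against 1.91 CPM, ZBTB16 and FAM107A did not reach 10 CPM in either condition. TMM factors moved the median over all genes from -0.61 to 0.09 in this comparison and from -0.25 to -0.02 between post-transplant and pre-transplant cyiPS-Cart. With them, 26.4% of genes were higher and 18.8% lower in pre-transplant cyiPS-Cart than in cyiPSC, and the 4 and 1 calls of the members were the same genes.

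No member that passed the filter in all 3 comparisons with pre-transplant cyiPS-Cart (FKBP5, ZBTB16 and FAM107A did not) was 2-fold higher in all 3, beside 3.48% of 7274 genes, and 0 were 2-fold lower in all 3, beside 4.06%. Without the filter the count was 2, ZBTB16 and FAM107A, beside 3.03% of 14020 genes.

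**Figure D4:**
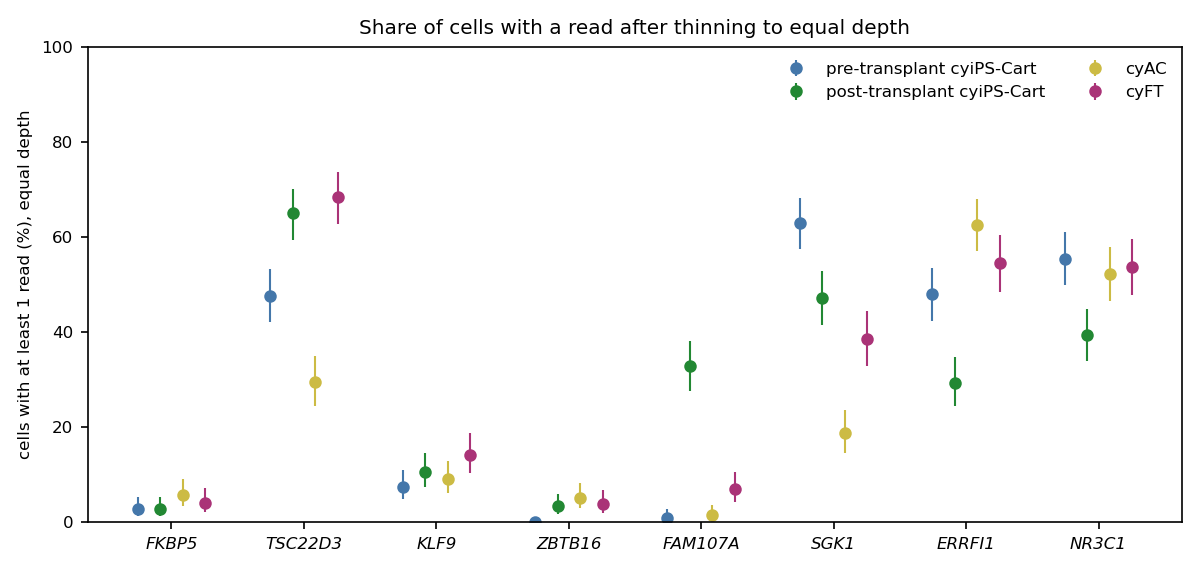
Share of cells in which each gene had a read (%) after every cell was thinned to 12191 reads, in pre-transplant cyiPS-Cart (319 cells), its post-transplant counterpart (320), cyAC (308) and cyFT (288); points are the shares and bars exact binomial 95% intervals, which cover counting error only. FAM107A is at 32.8% after transplantation and below 7% in the other tissues, TSC22D3 is lowest in cyAC at 29.6%, and ZBTB16 is at 0 in pre-transplant cyiPS-Cart.

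Shares of cells with a read can be raised by free RNA. Within the library that held cyiPSC and pre-transplant cells, COL2A1, a chondrocyte gene, was read in 0.40% of cyiPSC, at a median of 143075 reads per cell, and NANOG, a stem cell gene, in 1.98% of the 3527 pre-transplant cells, at a median of 59249. FAM107A was read in 3.35% (2.78 to 3.99) of the same 3527 cells, above the interval of NANOG (1.55 to 2.50), and in 2.19% of the 320. That the NANOG reads were free RNA was not tested. COL2A1 was among the genes corrected for background reads, so its share is a low reference.

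No pair of members had a correlation above 0.2 across cells. Over the cells of a condition at equal depth, Spearman's correlation between any pair of members lay between -0.111 and 0.074 in pre-transplant cyiPS-Cart (21 pairs, ZBTB16 being absent), -0.111 and 0.137 in post-transplant cyiPS-Cart, -0.161 and 0.153 in cyAC and -0.142 and 0.160 in cyFT (28 pairs each). Cells of a condition share their library, counts were sparse, and these values are a description. Of the 7 target genes, a cell at equal depth had reads of a median of 2 in the cyiPS-Cart conditions and in cyFT, and of 1 in cyAC. The share of cells with reads of at least 4 targets was 1.25% in pre-transplant cyiPS-Cart, 10.9% in post-transplant cyiPS-Cart, 0.325% in cyAC and 6.25% in cyFT. ERRFI1 is among these targets, and its shares cannot be compared across libraries. Without it, reads of at least 3 of 6 targets were in 3.13%, 19.7%, 0.325% and 9.38% of cells, a tally added after seeing the data.

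The conditions also differed in their mix of cells. Cells with reads of COL2A1, the collagen of cartilage, and none of COL1A1, the collagen of fibrous tissue, numbered 242 in pre-transplant cyiPS-Cart, 265 in post-transplant cyiPS-Cart, 276 in cyAC and 84 in cyFT, where 170 cells had COL1A1 and no COL2A1 reads. No reads here means none left after the background correction. The lowest counts above 0 were 277, 497, 76 and 81 for COL1A1 in the order above, and 147, 354, 219 and 211 for COL2A1. The split was thus made at counts that differ between libraries, which limits comparisons of its classes across them. Within cyFT the members fell on both sides of this split. FKBP5 was at 24.1 CPM in the COL2A1 cells and 1.85 CPM in the COL1A1 cells, FAM107A at 58.2 and 11.3 CPM, SGK1 at 270.0 and 91.0 CPM, and ERRFI1 at 2468 and 781 CPM. TSC22D3 was at 251 CPM in the COL2A1 cells and 584 CPM in the COL1A1 cells, and KLF9 at 9.60 and 30.3 CPM. NR3C1, at 222 and 229 CPM, and ZBTB16, at 10.9 and 6.70 CPM, had overlapping intervals. The COL2A1 cells of cyFT were deeper, with a median of 47802.5 reads against 21830. At equal depth, reads of ERRFI1 were in 92.9% and 36.8% of the cells, of SGK1 in 50.0% and 27.1%, of FAM107A in 16.7% and 2.78%, and of TSC22D3 in 52.4% and 77.1%.

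Among cells with COL2A1 and no COL1A1 reads, the order of conditions stayed for some members and changed for others. FAM107A was at 1.19 CPM in pre-transplant cyiPS-Cart, 108 CPM in post-transplant cyiPS-Cart, 6.78 CPM in cyAC and 58.2 CPM in cyFT, and was thus under 2-fold between post-transplant cyiPS-Cart and cyFT (0.87 on the log2 scale). TSC22D3 was at 105, 389, 73.6 and 251 CPM in the same order, so that post-transplant cyiPS-Cart and not cyFT was highest. ERRFI1 was at 255, 117, 1284 and 2468 CPM, and the transplant remained the lowest. KLF9 was at 7.58, 15.3, 8.62 and 9.60 CPM, and the difference between cyFT and pre-transplant cyiPS-Cart (0.30 on the log2 scale) was no longer past 2-fold. FKBP5 was at 4.09, 4.03, 14.3 and 24.1 CPM, SGK1 at 221, 250.2, 75.003 and 270.0 CPM, and NR3C1 at 131, 101, 226 and 222 CPM. ZBTB16 had 0 reads in the pre-transplant cells of this kind and was at 9.12, 11.8 and 10.9 CPM in the others. The level of FKBP5 was thus highest in cyFT among these cells. At equal depth it was read in 8.33% of those of cyFT and 6.30% of those of cyAC, with overlapping intervals. For SGK1 the intervals of the levels in cyFT (255 to 286 CPM) and post-transplant cyiPS-Cart (244 to 256 CPM) overlapped. In pre-transplant cyiPS-Cart, as in cyFT, TSC22D3 was lower in these cells than in the 19 with COL1A1 and no COL2A1 reads, which were at 415 CPM. In post-transplant cyiPS-Cart the order was the other way, at 389 CPM in the COL2A1 cells, 214 CPM in the 47 cells with both and 82.2 CPM (63.3 to 105) in the 7 with COL1A1 alone.

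**Figure D5:**
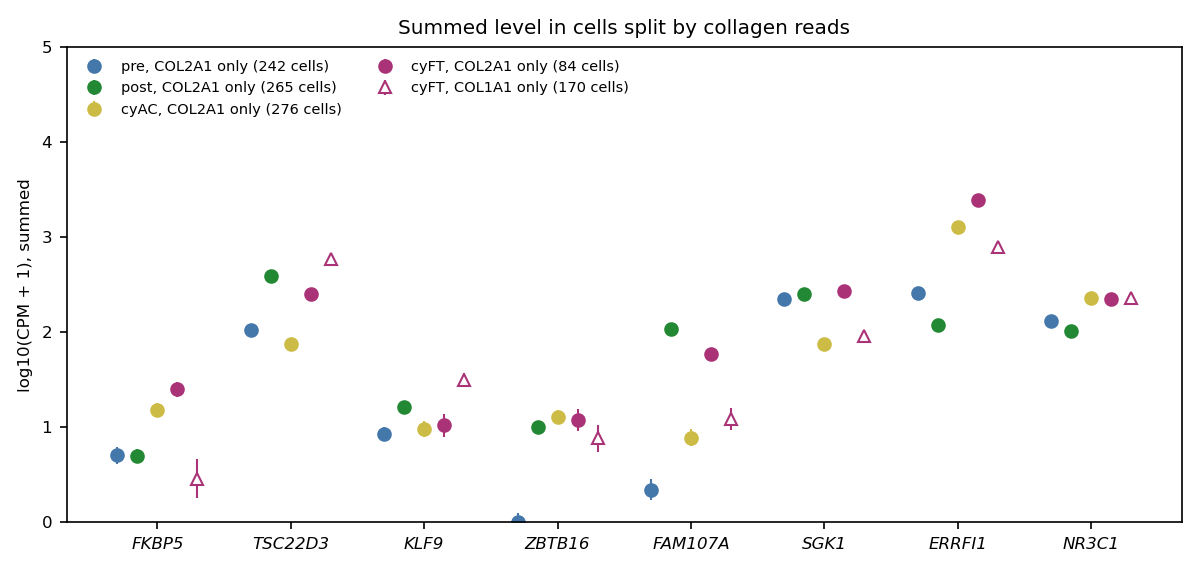
Summed level, as log10(CPM + 1), of the 8 genes in cells with COL2A1 and no COL1A1 reads of each tissue condition (circles) and in the cyFT cells with COL1A1 and no COL2A1 reads (open triangles); bars are exact Poisson 95% intervals, which cover counting error only. In cyFT the triangles of FKBP5, FAM107A, SGK1 and ERRFI1 lie below the circles, and those of TSC22D3 and KLF9 above them.

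Immune cells were measured beside these values, since several targets are used by them too. The 4 pan-immune markers PTPRC, CD53, LAPTM5 and CORO1A summed to 0.423 CPM in pre-transplant cyiPS-Cart, 1.41 CPM in post-transplant cyiPS-Cart, 7.19 CPM in cyAC and 203 CPM in cyFT, with PTPRC at 0 in the first and CORO1A at 0 in the second. The 5 listed macrophage markers summed to 4.13, 3.42, 16.9 and 275 CPM. With the 0, 2, 3 and 16 cells that had at least 2 of these genes left out, TSC22D3 in cyFT over pre-transplant cyiPS-Cart was 1.61 on the log2 scale against 1.57 with them, and FAM107A in post-transplant over pre-transplant cyiPS-Cart was 5.41 against 5.39. The T cell markers CD3D, CD3E and CD2 summed to 9.86 CPM in pre-transplant cyiPS-Cart, 13.9 CPM in post-transplant cyiPS-Cart, 14.0 CPM in cyAC and 18.8 CPM in cyFT, with CD3E at 0 in the last. At least 2 of them were in 13, 29, 10 and 12 of 320 cells, which were not left out, and their part in the members' levels was not tested. The 5 fibroblast markers summed to 22777 CPM in pre-transplant and 70658 CPM in post-transplant cyiPS-Cart, 8625 CPM in cyAC and 46991 CPM in cyFT. The 2 listed markers of synovial lining and the superficial zone summed to 976, 3429, 19444 and 12266 CPM, and their part, like that of the fibroblast markers, was not tested. The 3 listed smooth muscle and pericyte markers summed to 93.2, 18.0, 13.4 and 63.6 CPM, and their part was not tested either. The 5 endothelial markers PECAM1, CDH5, VWF, KDR and EMCN summed to 0.329, 0.469, 12.9 and 9.20 CPM in the same order. All of them but PECAM1 were at 0 in post-transplant cyiPS-Cart, CDH5, VWF and EMCN in pre-transplant cyiPS-Cart, and KDR and EMCN in cyFT.

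Other genes of the pathway were counted from fixed lists. Of the receptor machinery, which holds chaperones, coregulators and hormone-converting enzymes, 11 listed genes passed the filter. Between post-transplant and pre-transplant cyiPS-Cart 0 of these 11 were higher and 3 were lower, in cyAC over pre-transplant cyiPS-Cart 1 was higher and 1 lower, and in cyFT 3 were higher and 0 lower, or 2 and 1 without the cells with immune markers, when the median was -0.27. Over all genes the shares higher and lower were 8.92% and 18.5% in post-transplant cyiPS-Cart, 11.9% and 15.5% in cyAC, and 16.4% and 9.15% in cyFT. The medians of the 11 were -0.66, -0.30 and -0.04 on the log2 scale, beside the medians over all genes given above. Of the 11, 0 were higher and 0 lower in all 3 animal samples, beside 3.48% and 4.06% of all genes.

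Of the other inducible targets, 9 of 25 were higher and 4 lower in post-transplant than in pre-transplant cyiPS-Cart, 9 of 24 were higher and 6 lower in cyAC, and 9 of 24 were higher and 5 lower in cyFT, beside 8.92% and 18.5%, 11.9% and 15.5%, and 16.4% and 9.15% of all genes. Their medians were 0.06, 0.24 and 0.53. Some of the higher genes, PER1 among them, passed the filter only through the animal sample, so nothing is read from these counts about the list. Of 23 that passed in all 3 comparisons, 4 were higher in all 3, beside 3.48% of all genes. PER1, a component of the circadian clock, was at 9.11 CPM in pre-transplant cyiPS-Cart, 264 CPM in post-transplant cyiPS-Cart, 65.6 CPM in cyAC and 166 CPM in cyFT. DDIT4, an inhibitor of mTORC1 signalling, was at 16.9, 229, 52.3 and 156 CPM in the same order. NFKBIA, the inhibitor of NF-κB, was at 20.7, 98.1, 176 and 233 CPM, and ZFP36, which promotes decay of inflammatory mRNAs, at 90.1, 561, 343 and 463 CPM. PER1, DDIT4 and ZFP36 thus had the order of tissue conditions of FAM107A, with the transplant highest and cyAC lowest of the animal samples. The sum of the dissociation genes given below had the same order. ANXA1, an anti-inflammatory phospholipid-binding protein, was lower in all 3 animal samples, at 2971, 496, 1063 and 1319 CPM.

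Of the targets that glucocorticoids are known to repress, 1 of 6 was higher and 3 lower in post-transplant than in pre-transplant cyiPS-Cart, 9 of 12 were higher and 3 lower in cyAC, and 9 of 13 were higher and 1 lower in cyFT, beside the same shares of all genes. Their medians were -1.05, 2.69 and 2.03. The filter favours higher calls here, as it does among the members. Several genes called higher in cyAC and cyFT were below 10 CPM before transplantation and passed only through the animal sample. Of the 18 listed genes, 6, 12 and 13 passed in turn, so nothing is read from these counts and medians about the list. Immune markers moved with this list: IL1B, an inflammatory cytokine, was at 118 CPM in cyFT and 0.583 CPM there without the 16 cells that held immune markers, and CXCL8, a chemokine, was at 384 and 6.99 CPM. Without such cells 8 of 11 were higher and 3 lower in cyAC, and 7 of 11 were higher and 1 lower in cyFT. PTGS2, the inducible cyclooxygenase, was higher in all 3 animal samples, at 51.6, 520, 317 and 214 CPM, and PLAUR, the urokinase receptor, was lower, at 192, 13.3, 69.2 and 78.1 CPM.

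Genes of the early response to tissue dissociation moved in the same comparisons. Of 8 listed genes, 3 were higher in all 3 animal samples than in pre-transplant cyiPS-Cart: FOSB, EGR1 and GADD45B, beside 3.48% of all genes. FOSB, at 4.41 CPM before transplantation, passed the filter only through the animal samples. Between post-transplant and pre-transplant cyiPS-Cart 5 were higher and 2, the chaperone genes HSPH1 and DNAJA1, were lower, beside 8.92% and 18.5% of all genes. In cyAC 3 were higher and 0 lower, beside 11.9% and 15.5%, and in cyFT 5 were higher and 1 lower, beside 16.4% and 9.15%. The list summed to 2194 CPM in pre-transplant cyiPS-Cart, 9856 CPM in post-transplant cyiPS-Cart, 2578 CPM in cyAC and 4292 CPM in cyFT. The sum was thus highest in post-transplant cyiPS-Cart, where FOS alone gave 5742 CPM, and the levels of FAM107A, PER1, DDIT4 and ZFP36 were highest there too. HSPH1, at 66.8 CPM, and DNAJA1, at 60.5 CPM, were lowest there of the 4 tissue conditions, and FOSB was below cyAC and cyFT. The part of the dissociation response in the members' levels was not tested.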

How the data were processed

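The deposited matrices hold whole-number counts of reads per gene and cell, made by the authors from TAS-Seq libraries; their notes name cutadapt 3.4, Bowtie2 2.4.2 and R 3.6.3. The authors corrected the counts for background reads from diffused RNA, and no molecular identifiers are described, so reads were treated as reads and not molecules. The GEO labels name libraries only, and the condition of a cell within a library was taken from the prefix of its name as the code supplied with the paper defines it. The 3 hashtag libraries were not used. Doublets were kept, except in an alternative with scrublet, which marked 14 of 2500 cyiPSC and 0 of 3527 pre-transplant cells of the larger matrix, too few to be taken as a working call, and 19, 33, 2 and 2 cells of the tissue conditions.

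Counts were summed per condition, scaled to CPM, and compared as log2(CPM + 1) in Python 3.11.15 (numpy 2.4.6, scipy 1.17.1, scanpy 1.11.5), with 2-fold as the size of a call and genes below 10 CPM in both samples left out. No test was made, since each condition was 1 sample. Intervals are exact at 95% (Poisson for levels, Clopper-Pearson for shares, conditional binomial for ratios), and a count of 0 was also given a limit of 3 counts. Cells were thinned to 12191 (tissue matrix) or 30967 (stem cell matrix) reads, which left out 1, 0, 12 and 32 cells of the tissue conditions. Log2 ratios of summed CPM and thinning were tested on simulated data, and the 2-fold calls were not. TMM (edgeR 4.0.16) and DESeq2 1.42.0 factors served as alternative scalings only.

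The members and lists were chosen with earlier results of these data known. Genes named beside the members were those of the pathway lists past 2-fold in the same direction in all 3 animal samples, up to 6 a list, and the 5 genes most like FKBP5 and TSC22D3 in pattern; IL1B, CXCL8, FOS, HSPH1 and DNAJA1 were named after their values were seen, and some genes that these rules name are not reported here. The 8 symbols were found in the RefSeq gene table. No genome of the build was used, so no coordinates or sequences are given.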

Additional observations from a re-analysis of the deposited data

Results flagged for a closer look

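ERRFI1 was the member whose animal samples lay on opposite sides of pre-transplant cyiPS-Cart by more than 2-fold: its log2 ratio over pre-transplant cyiPS-Cart was -1.10 in post-transplant cyiPS-Cart, 2.27 in cyAC and 2.59 in cyFT. The first of these fell short of 2-fold with TMM factors (-0.87), DESeq2 factors (-0.89), the 3527 pre-transplant cells of the stem cell matrix (-0.79) and without the 5% of cells highest in the gene (-0.92). With 1 sample per condition the difference between these ratios was not tested, and they share the pre-transplant sample. The post-transplant cells came from another library than cyAC and cyFT, and the lowest count above 0 of ERRFI1 was 9 in the first and 8 in the second.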

How the results depend on the processing

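The 29 member differences past 2-fold were recomputed under the 13 settings that can move a ratio, 11 to 13 for each, which gave 355 values. Of these, 0 had the other sign and 21 fell short of 2-fold. Another 4 settings changed only the filter or the size of a call. Counts of members moved by over 1.5 times as follows. With a pseudocount of 10 CPM, 3 were higher in cyFT than in pre-transplant cyiPS-Cart and 1 was lower in post-transplant cyiPS-Cart than in cyFT. With at least 50 CPM required, 1 was higher in cyAC and 2 in cyFT than in pre-transplant cyiPS-Cart, 1 was lower in post-transplant cyiPS-Cart than in cyFT and 0 were lower in pre-transplant cyiPS-Cart than in cyiPSC. With no filter, 2 were higher in all 3 animal samples. With the mean of per-cell CPM, 1 (ZBTB16) was lower in cyFT than in cyAC and 1 was lower in post-transplant cyiPS-Cart than in cyFT, and the latter count was also 1 at equal depth. Without the 5% of cells highest in a gene, 0 were lower in post-transplant and 1 higher and 2 lower in cyAC than in pre-transplant cyiPS-Cart, 3 were higher in cyFT, and 1 was lower in post-transplant cyiPS-Cart than in cyFT. The count lower in post-transplant than in pre-transplant cyiPS-Cart was 0 with TMM factors, with DESeq2 factors and with the larger set of pre-transplant cells. At 1.5-fold, 2 were lower in cyAC than in pre-transplant cyiPS-Cart. At 3-fold, 1 was higher and 0 lower in post-transplant and 2 higher in cyFT than in pre-transplant cyiPS-Cart, and 1 was lower in post-transplant cyiPS-Cart than in each of cyAC and cyFT. In cells with COL2A1 and no COL1A1 reads, a split that, like the removal of immune-marker cells from members and lists, was chosen after seeing the data, 0 were higher in post-transplant cyiPS-Cart than in cyFT. The smaller counts at 50 CPM, 3-fold and a larger pseudocount follow from stricter rules, and the cause was not tested for the others. With at least 10 reads required, FAM107A was in 26.2% of post-transplant, 0.625% of pre-transplant, 1.25% of cyAC and 4.06% of cyFT cells, and without thinning the highest correlation of members lay between 0.149 and 0.194. No paired analysis was possible because each condition was 1 sample, and for the same reason no replicate could be left out. Depth limits values that rest on few cells, as for FKBP5 and ZBTB16 in each tissue and FAM107A outside the transplant.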

Other observations

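Among the genes whose 4 log2 ratios (post-transplant cyiPS-Cart, cyAC and cyFT over pre-transplant cyiPS-Cart, and pre-transplant cyiPS-Cart over cyiPSC) lay nearest to those of FKBP5 out of 9309 genes were FABP3, DNMT3A, PHF24 and DEK, at root mean square differences from 0.075 to 0.263. Those nearest to TSC22D3 were TLL1, ZFHX3, EDNRA, THBS3 and ADAMTS2, at 0.249 to 0.547. None of the 9 genes named was on the fixed lists of glucocorticoid targets. Across cells of post-transplant cyiPS-Cart, cyAC and cyFT at equal depth, the genes with the highest mean Spearman correlation with FKBP5 among 1720 genes were HSPA5, TIMP3, TMEM263, RB1CC1 and MRPS10, at 0.104 to 0.117, which is weak in sparse counts and is given as a value only.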
